A study of Mus musculus with 16 samples.

Results

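The miR-15 and miR-16 family is described here by 4 of its mature microRNAs (miRNAs), mmu-miR-15a, mmu-miR-15b, mmu-miR-16 and mmu-miR-195, written below without the mouse prefix. They were taken by name from the 604 mouse miRNAs that both array designs of the study carry. Tests covered the 175 miRNAs that at least 1 population showed on both of its arrays, and all 4 were among them.

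A miRNA is a short RNA that guides the Argonaute protein to messenger RNAs, and the bases at its 5′ end called the seed decide most of the pairing. The miR-15 and miR-16 family is known for restraining cell division and survival, through targets such as the cyclins of the G1 phase and the anti-apoptotic protein Bcl2. Loss of miR-15a and miR-16 is frequent in human chronic lymphocytic leukaemia. In the blood lineages the family is otherwise known from lymphocytes, where its removal in mice lets B cells accumulate.

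RNA came from cells sorted directly from female C57Bl/6 mice of 6 weeks, with no culture, treatment or mutation in any group. Gr1+ monocytes (CD11b+ CD115+ Gr1+) and plasmacytoid dendritic cells (PDC; B220+, SiglecH+, CD317+, intermediate for CD11c) were marrow cells, each sample pooled from 5 mice. Dendritic cells (DC) of the spleen, all CD11c+ and CD3-, were split into CD4+, CD8+ and CD4-CD8- cells from 8 pooled mice, and CD86 was part of the gate for CD8+ DC alone. Each sample of the 3 marrow progenitors pooled 15 mice, and these cells carried CD135, lacked the lineage markers and differed in CD115 and CD117. MP, a name the labels leave unexplained, had CD117 but not CD115. MDP, progenitors of macrophages and DC, had both, and CDP, the common progenitors of DC, had CD115 with low CD117. Each population had 2 arrays from separate pools, 16 arrays in all, and the 2 replicates were hybridised to different array designs, numbered 1 and 2 after them. Pool size and enrichment differed between the progenitors and the others, and their part in the results was not tested.

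The sequences below show why these miRNAs form a family and where they part. Each was found in RefSeq (GRCm38.p6) under the name of its 5′ arm, and the capitals mark the seed, bases 2 to 8 from the 5′ end.
miR-15a: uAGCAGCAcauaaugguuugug
miR-15b: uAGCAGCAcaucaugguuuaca
miR-16: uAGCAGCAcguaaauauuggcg
miR-195: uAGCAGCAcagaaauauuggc

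The seed AGCAGCA was identical in all 4. Beyond it the members fell into 2 pairs, with miR-15a and miR-15b equal at 18 of 22 positions and miR-16 and miR-195 equal at 19 of 21. Across the pairs, miR-15a and miR-16 were equal at 16 of 22 positions.

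The genes are arranged differently from the sequences. Mature miR-15a lies at chr14:61632075-61632096 on the minus strand, and its gene Mir15a is 54 bases from Mir16-1, both within the long noncoding RNA gene Dleu2. Mature miR-15b lies at chr3:69009775-69009796 on the plus strand, and Mir15b is 66 bases from Mir16-2, both within the protein-coding gene Smc4, which encodes a condensin subunit. The mature miR-16 of both genes is the same sequence, at chr14:61631936-61631957 and chr3:69009918-69009939, so the arrays measured the sum of what both loci produced. Mature miR-195 lies at chr11:70235062-70235082 on the plus strand, and Mir195a is 241 bases from Mir497.

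A level is the log2 of a miRNA's processed signal over a reference value of its array, which is the 75th percentile among 88 miRNAs that every array detected. A level of 0 thus equals that percentile. Because a probe's brightness depends on its sequence, levels of one member are compared between populations and never with the level of another member. Differences were fitted with limma with the array design as a block, and p-values were adjusted by the Benjamini-Hochberg method over all 175 miRNAs within each comparison. A difference is called where the adjusted p is under 0.05, and errors of fitted differences are standard errors (SE).

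On each array 16.7 to 25.4 percent of spots passed the scanner software's test against background, and 0 were saturated. The miRNAs detected numbered 116 to 174 per array. Marker miRNAs were read as a check of the labels. The myeloid miRNAs miR-223 and miR-142-3p were detected in every population, so their detection does not separate the labels. Of the lymphoid and plasmacytoid miRNAs, miR-181a and miR-128 had their highest mean levels in PDC (0.72 and -0.77). miR-150, the other of that list, was at -0.83 in PDC and -0.73 in CD4-CD8- DC. The stem and progenitor miRNAs miR-126-3p, miR-196b and miR-130a had summed linear scaled signals of 0.00634 to 0.225 on the 10 arrays of differentiated cells. On the 6 progenitor arrays the sums were 0.240 to 1.37. Of the 3, 0 were detected in Gr1+ monocytes or spleen DC, but all 3 were detected in PDC. The PDC sums, 0.175 and 0.225, came close to the CDP sums, 0.240 and 0.299. The stromal miRNAs miR-143, miR-145 and miR-199a-3p were detected on 0 arrays.

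miR-15a was high in all 5 differentiated populations and low in all 3 progenitor populations. Its replicate levels were 1.15 and 0.81 in Gr1+ monocytes, 0.96 and 0.85 in PDC, 1.40 and 1.03 in CD4+ DC, 1.27 and 0.79 in CD8+ DC, and 1.26 and 0.83 in CD4-CD8- DC. The progenitors had -0.30 and -0.54 in MP, -0.60 and -0.73 in MDP, and -0.23 and -0.65 in CDP. The lowest differentiated array, at 0.79, lay above the highest progenitor array, at -0.23, so the groups did not overlap. How many of the 175 miRNAs separated in this way was not counted, for this member or for the others below. Between these groups 63.4 percent of the 175 were called in either direction, which is another measure.

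miR-16, which both loci encode, showed the same division with more spread among the differentiated cells. Its levels were 2.50 and 2.36 in Gr1+ monocytes, 1.55 and 1.79 in PDC, 1.96 and 1.90 in CD4+ DC, 2.04 and 1.97 in CD8+ DC, and 1.84 and 1.89 in CD4-CD8- DC. The progenitors had 1.00 and 0.92 in MP, 0.72 and 0.86 in MDP, and 1.02 and 0.90 in CDP. Again no array of one kind reached into the range of the other, and both monocyte arrays stood above the other 14.

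miR-15b, the member encoded beside Mir16-2, changed least. Its levels were 2.50 and 2.26 in Gr1+ monocytes, 1.90 and 2.11 in PDC, 1.78 and 1.74 in CD4+ DC, 2.18 and 2.13 in CD8+ DC, and 2.03 and 1.98 in CD4-CD8- DC. The progenitors had 1.64 and 1.57 in MP, 1.38 and 1.53 in MDP, and 1.68 and 1.53 in CDP. The groups did not overlap, but CD4+ DC at 1.74 came close to the highest progenitor array at 1.68.

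miR-195 was dim. Its levels were -4.57 and -4.88 in Gr1+ monocytes, -4.63 and -4.42 in PDC, -4.30 and -4.42 in CD4+ DC, -4.40 and -4.64 in CD8+ DC, and -4.34 and -4.52 in CD4-CD8- DC. It was detected on all 10 of those arrays. On the 6 progenitor arrays it lay at the floor to which low values were raised, -5.30 on design 1 and -5.78 on design 2, and it was detected on 1 of them, the MP array of replicate 2.

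**Figure D1:**
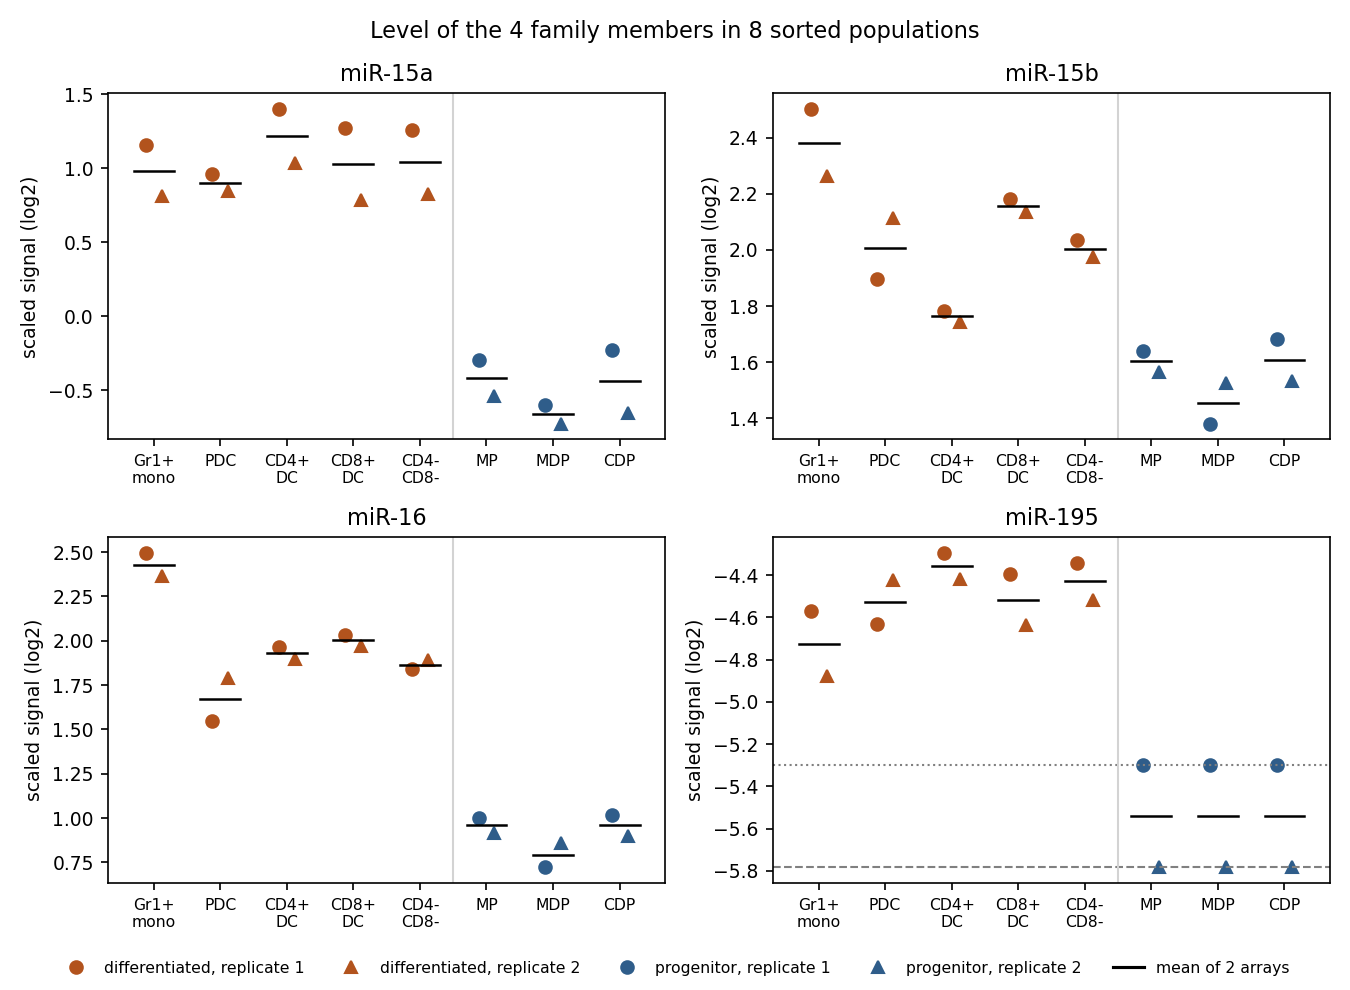
Scaled log2 signal of miR-15a, miR-15b, miR-16 and miR-195 on each of the 16 arrays, with Gr1+ monocytes, PDC and 3 spleen DC populations left of the line and MP, MDP and CDP right of it. Circles are replicate 1, triangles replicate 2, bars the mean of both, and the dotted and dashed lines for miR-195 are the floors of designs 1 and 2. In all 4 panels the differentiated arrays lie above the progenitor arrays, by the widest gap for miR-15a. The progenitor arrays of miR-195 are at the floor, and such separation was not counted over the other tested miRNAs.

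Over the 8 populations, all 4 members differed by the moderated F test of limma, which called 73.1 percent of the 175 miRNAs. The adjusted p was 1.94e-06 for miR-15a, 7.08e-06 for miR-16, 2.23e-04 for miR-195 and 6.23e-04 for miR-15b. For miR-195 every progenitor value was the floor, and it was tested because differentiated cells showed it. Its F test therefore restates that split and is not separate evidence.

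The first comparison set the 5 differentiated populations against the 3 progenitor populations. miR-15a rose by 1.54 ± 0.06 on the log2 scale (SE; 2.91-fold), with levels of 0.79, 0.99 and 1.40 (lowest, median and highest of 10 arrays) in differentiated cells and -0.73, -0.57 and -0.23 (6 arrays) in progenitors, and an adjusted p of 6.07e-08 by limma. miR-16 rose by 1.08 ± 0.05 (2.11-fold), with 1.55, 1.93 and 2.50 in differentiated cells and 0.72, 0.91 and 1.02 in progenitors (adjusted p = 2.08e-07, limma). miR-15b rose by 0.51 ± 0.06 (1.42-fold), with 1.74, 2.07 and 2.50 in differentiated cells and 1.38, 1.55 and 1.68 in progenitors (adjusted p = 4.45e-05, limma). All 10 differentiated arrays were above all 6 progenitor arrays for each of these. For miR-195 the fit gave 1.03 ± 0.09 (adjusted p = 5.17e-06, limma), a size that depends on the floor, since the same fit gave 1.84 with the floor lowered by 1 log2 unit. The call of miR-195 was lost with background correction by normexp (0.25, adjusted p = 0.442, limma), and its dimmer probe was at the floor in all populations and gave 0. The RNA of each array came from many cells, so a larger share of cells with a member and more of it per cell cannot be told apart.

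These 4 calls are read against a background in which many miRNAs rose. Of the 175, 38.9 percent were called higher and 24.6 percent lower in differentiated cells, and the median difference was 0.14 over all 175 and 1.05 over the 4 members. Ranked from the largest rise, miR-15a was 12th, miR-16 20th, miR-195 22nd and miR-15b 42nd. The split of all calls depended on the scaling, with 68 of 111 calls higher here and 46 of 95 with a percentile over all miRNAs as the divisor. The direction of the 4 members was the same under each of the scalings tried, but the call of miR-15b was lost under quantile normalization (0.12, adjusted p = 0.198, limma).

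**Figure D2:**
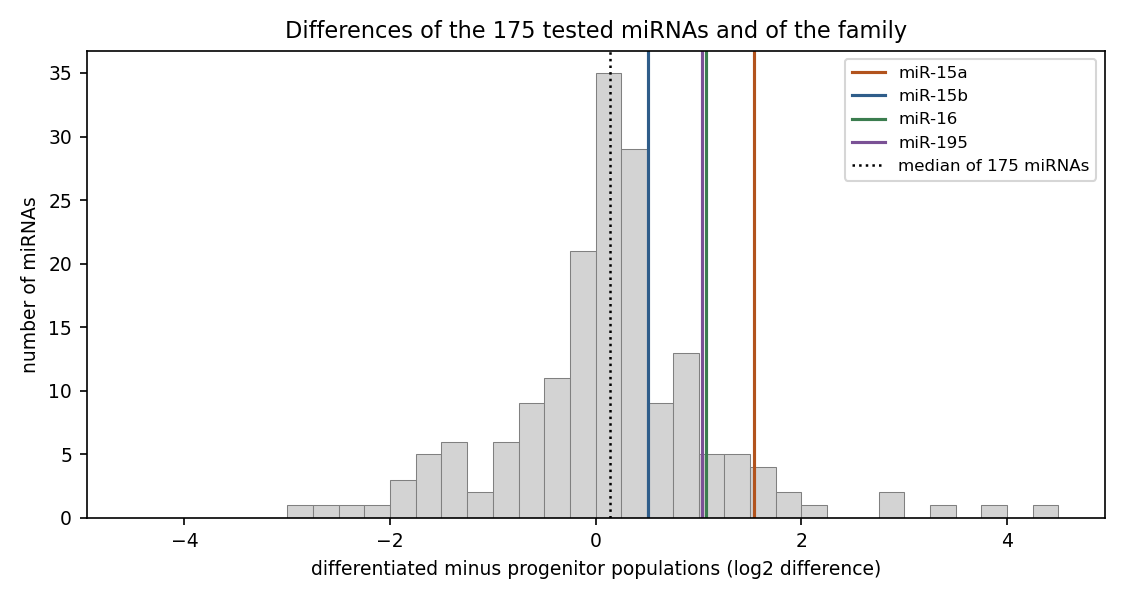
Number of miRNAs (vertical axis) by log2 difference between the differentiated and the progenitor populations (horizontal axis) for the 175 tested miRNAs, with coloured lines at the 4 family members and a dotted line at the median of 0.14. The members lie between 0.51 and 1.54, to the right of the median but inside the range of the other miRNAs.

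The spleen DC also differ from the progenitors in tissue, so the same contrast was made within bone marrow, with Gr1+ monocytes and PDC against MP, MDP and CDP. miR-15a rose by 1.45 ± 0.07 (2.73-fold, adjusted p = 1.19e-06, limma), miR-16 by 1.15 ± 0.07 (2.21-fold) and miR-15b by 0.64 ± 0.07 (1.56-fold). The fit gave 0.91 ± 0.11 for miR-195, again against the floor, and with normexp it was not called (0.51, adjusted p = 0.181, limma). Here 28 percent of the 175 miRNAs were called higher, and their median difference was 0, against 1.03 for the members.

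All 15 pairs of a differentiated with a progenitor population were also fitted singly. Against MP, MDP and CDP in that order, the share of the 175 miRNAs called in either direction was 34.9, 37.7 and 40 percent for Gr1+ monocytes, 45.1, 43.4 and 37.7 percent for PDC and 44.6, 53.7 and 50.3 percent for CD4+ DC. It was 61.1, 65.7 and 69.1 percent for CD8+ DC and 43.4, 45.1 and 43.4 percent for CD4-CD8- DC. miR-15a was called higher in 15 of 15 pairs, by 1.32 to 1.88, and miR-16 in 15 of 15, by 0.71 to 1.64. miR-15b was called in 13 of 15, by 0.16 to 0.93 over all 15, and the 2 pairs not called were CD4+ DC against MP and against CDP. miR-195 was called in 15 of 15, but every progenitor value was the floor. The 3 progenitors thus gave the same difference, and miR-195 could not come out lower in differentiated cells. It was tested because it was detected in those cells, so these calls are not separate evidence. Among the 3 pairs of progenitor populations, 0 were called for any member, and for miR-195 they set the floor against itself.

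The stepwise comparisons follow the lineage tree. MDP can give rise to monocytes, and Gr1+ monocytes were set against MDP. In this step 20 percent of the 175 miRNAs were called higher, and all 4 members were among them. miR-15a and miR-16 rose by the same amount, 1.64 ± 0.11 each (3.13-fold and 3.11-fold, adjusted p = 1.04e-05 for both, limma), and were 3rd and 4th of 175 by size. miR-15b rose by 0.93 ± 0.11 (1.90-fold), its largest difference in any pair of a differentiated with a progenitor population. miR-195 was fitted at 0.82 ± 0.16, and no lower bound above 1 could be set for its fold because its mean in monocytes, -4.72, was under the detection limit of the MDP arrays, -4.69. The call of miR-195 was also lost without MDP replicate 2 (0.70, adjusted p = 0.0501, limma) and with normexp (0.89, adjusted p = 0.149, limma).

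PDC were set against CDP, and 25.7 percent of the 175 miRNAs were called higher. miR-15a rose by 1.34 ± 0.11 (2.54-fold, adjusted p = 1.36e-05, limma) and miR-16 by 0.71 ± 0.11 (1.64-fold, adjusted p = 4.70e-04, limma). miR-195, detected on 0 of 2 CDP arrays and 2 of 2 PDC arrays, was at least 1.58-fold higher, a bound that was not tested. The fit with CDP at the floor gave 1.01 ± 0.16 for miR-195 (adjusted p = 8.42e-04, limma). With normexp its difference was 0.062 and was not called. miR-15b was called at 0.40 ± 0.11 (adjusted p = 0.0188, limma), but without the replicate block its adjusted p was 0.0701, and it was not called without CDP replicate 2 (0.33) or PDC replicate 2 (0.26), nor under quantile normalization (0.36) or with normexp (0.40). Scaling over all miRNAs turned miR-15b to -0.13 and left miR-16 at 0.19, neither called.

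The 3 spleen DC populations together were set against CDP, and 36.6 percent of the 175 miRNAs were called higher, with a median difference of 0.26. miR-15a rose by 1.53 ± 0.09 (2.90-fold, adjusted p = 1.05e-06, limma) and miR-16 by 0.97 ± 0.09 (1.96-fold, adjusted p = 1.34e-05, limma). miR-195 was at least 1.68-fold higher in spleen DC, a bound that was not tested. The fit with CDP at the floor gave 1.11 ± 0.13 for miR-195 (adjusted p = 9.76e-05, limma). With normexp its difference was 0.16 and was not called. miR-15b was called at 0.37 ± 0.09 (adjusted p = 0.00668, limma), close to the median of all miRNAs. Scaling over all miRNAs put miR-15b at -0.35 and quantile normalization at -0.23, neither called, and miR-16 was not called at 0.26 under scaling over all miRNAs. The call of miR-15b was also lost without CDP replicate 2 (0.30, adjusted p = 0.0921, limma) and with normexp (0.36, adjusted p = 0.147, limma).

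Among the progenitors 0 members were called at either step. In MDP against MP, where 10.3 percent of the 175 miRNAs were called, miR-15a differed by -0.24 ± 0.11, miR-15b by -0.15 ± 0.11 and miR-16 by -0.17 ± 0.11. In CDP against MDP, 0 percent of the 175 were called by limma, with 26 at an unadjusted p under 0.05, and the differences were 0.22 ± 0.11 for miR-15a, 0.15 ± 0.11 for miR-15b and 0.17 ± 0.11 for miR-16. None of the 4 members was among the 26.

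Between differentiated populations miR-16 was called in each of 3 comparisons and miR-15a in 0, and other settings changed some of these calls. In Gr1+ monocytes against spleen DC, where 41.1 percent of the 175 miRNAs were called, miR-16 was higher in monocytes by 0.50 ± 0.09 (1.41-fold, adjusted p = 0.00166, limma) and miR-15b by 0.41 ± 0.09 (1.33-fold, adjusted p = 0.00594, limma). miR-15a differed by -0.11 ± 0.09 and miR-195 by -0.29 ± 0.13, neither called. Without Gr1+ monocytes replicate 1 the call of miR-15b was lost (0.29, adjusted p = 0.106, limma). With normexp neither miR-16 (0.27, adjusted p = 0.136, limma) nor miR-15b (0.19) was called, while miR-195 was called with its sign turned (0.94, adjusted p = 0.0275, limma), where the median of all 175 was 0.86. Under quantile normalization miR-15a was called higher in monocytes (0.35, adjusted p = 0.0246, limma).

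In Gr1+ monocytes against PDC, with 40.6 percent of the 175 called, miR-16 was higher in monocytes by 0.76 ± 0.11 (1.69-fold, adjusted p = 4.54e-04, limma), a call lost under quantile normalization (0.30, adjusted p = 0.128, limma). miR-15b was called at 0.38 ± 0.11 (adjusted p = 0.0235, limma), but not without the replicate block (adjusted p = 0.0890), without Gr1+ monocytes replicate 1 (0.26) or without PDC replicate 1 (0.24). Nor was miR-15b called when scaled over all miRNAs (0.40), with normexp (0.14) or with the brightest probe (0.19). Quantile normalization turned its sign (-0.052, not called), while the dimmer probe kept the call (0.67). In PDC against spleen DC, with 42.9 percent called, miR-16 alone was called, at -0.26 ± 0.09 (adjusted p = 0.0368, limma). That call was lost without the replicate block (adjusted p = 0.136), and without PDC replicate 1 (-0.12). It was also lost without replicate 1 of CDP, CD4+ DC, CD8+ DC or CD4-CD8- DC and without CD4-CD8- DC replicate 2 (-0.27 to -0.25), and under quantile normalization it was called with its sign turned (0.38, adjusted p = 0.0257, limma). Without PDC replicate 2, miR-15a (-0.31) and miR-195 (-0.35) were called as well.

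Within the spleen DC the members were not called. In CD8+ DC against the other spleen DC, 33.1 percent of the 175 miRNAs were called, and the largest member difference was 0.27 ± 0.10 for miR-15b (adjusted p = 0.0575, limma), which was called without PDC replicate 1 or 2 (adjusted p = 0.0229 and 0.0223, limma). Scaling over all miRNAs moved the median of all 175 to -0.23, against 0.19, and called miR-15a, miR-16 and miR-195 lower in CD8+ DC (-0.85, -0.64 and -0.85). In CD4+ DC against CD4-CD8- DC, 4.57 percent were called, and the member differences ran from -0.24 for miR-15b to 0.17 for miR-15a. Single pairs did separate miR-15b, which was lower in CD4+ DC than in CD8+ DC by -0.40 ± 0.11 (adjusted p = 0.0275, limma), a pair in which 30.9 percent of the 175 were called.

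**Figure D3:**
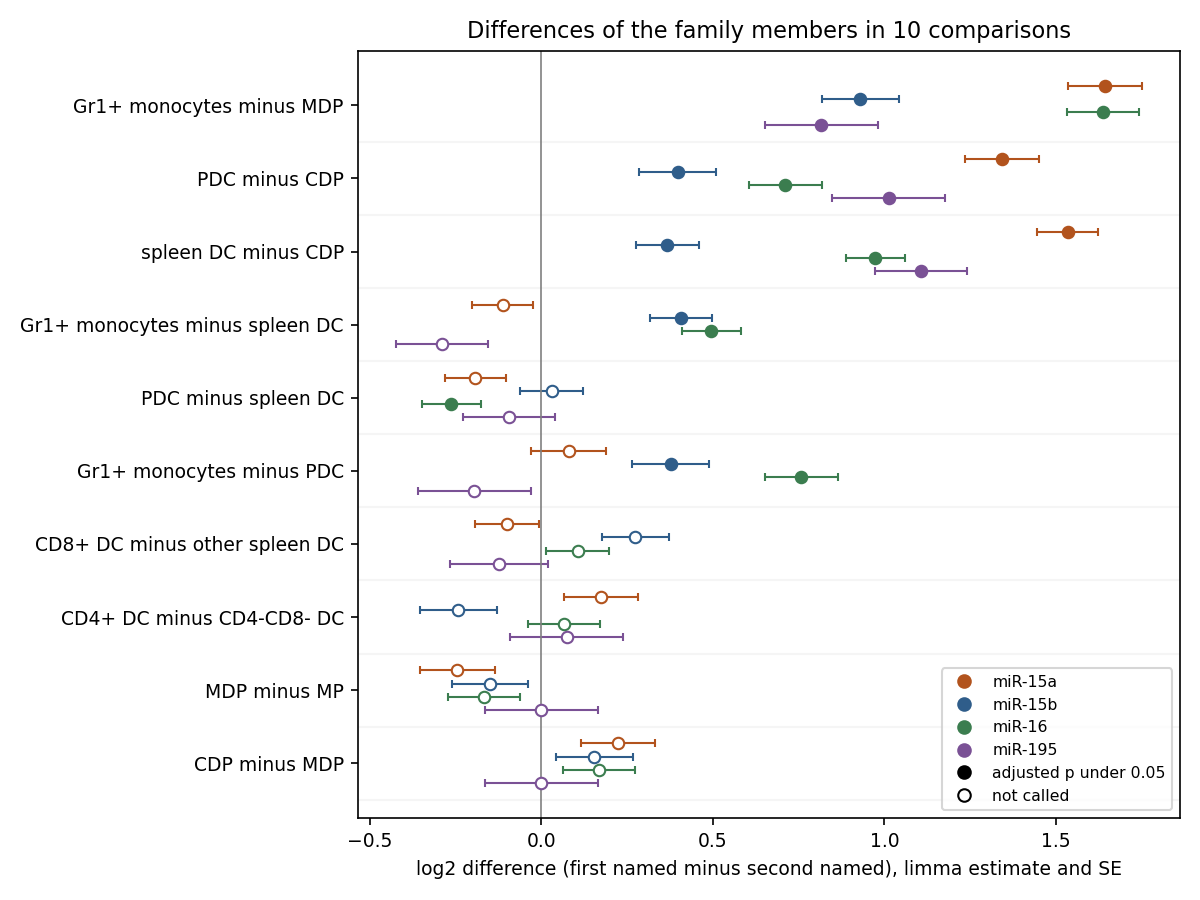
Fitted log2 difference with its SE (horizontal axis) for the 4 members in 10 comparisons (rows), each as the first named population minus the second. Filled points have an adjusted p under 0.05. The 3 rows that set a differentiated population against a progenitor hold filled points for all 4 members, between 0.37 and 1.64, and the last 4 rows hold none.

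Ordered by mean level, miR-15a ran from CD4+ DC (1.22) through CD4-CD8- DC (1.04), CD8+ DC (1.03), Gr1+ monocytes (0.98) and PDC (0.90) to MP (-0.42), CDP (-0.44) and MDP (-0.66). Of its 7 neighbouring pairs 1 was called, PDC over MP, by 1.32 ± 0.11. miR-16 ran from Gr1+ monocytes (2.43) through CD8+ DC (2.00), CD4+ DC (1.93), CD4-CD8- DC (1.87) and PDC (1.67) to CDP and MP (0.96 each) and MDP (0.79). Of its 7 pairs 2 were called, monocytes over CD8+ DC by 0.43 ± 0.11 (adjusted p = 0.00955, limma), a pair with 47.4 percent of the 175 called, and PDC over CDP by 0.71 ± 0.11. miR-15b ran from Gr1+ monocytes (2.38) through CD8+ DC (2.16), PDC and CD4-CD8- DC (2.01 and 2.00) and CD4+ DC (1.76) to CDP (1.61), MP (1.60) and MDP (1.45), and 0 of its 7 neighbouring pairs were called. MDP had the lowest mean of all 3 members. Among the 5 differentiated populations miR-195 was highest in CD4+ DC (-4.36) and lowest in Gr1+ monocytes (-4.72), with 0 of 4 neighbouring pairs called.

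Because the members differ in locus, the log2 ratio between each pair was taken within every array, where the scaling cancels. The level of a ratio reflects the probes, and its difference between populations is what is compared. The 6 ratios were tested between differentiated and progenitor populations by an exact two-sided permutation test within replicates (3136 arrangements, smallest p 0.000319), adjusted over the 6.

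miR-15a rose more than its paralog miR-15b. The ratio of miR-15a to miR-15b was -1.03 ± 0.34 (SD, n = 10) in differentiated cells and -2.06 ± 0.14 (SD, n = 6) in progenitors, higher by 1.03 with no overlap between the arrays (exact adjusted p = 0.000638). It was -1.35 and -1.45 in Gr1+ monocytes, -0.94 and -1.27 in PDC, and between -1.35 and -0.38 in spleen DC, with its highest values in CD4+ DC.

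miR-16, the sum of both loci, also rose more than miR-15b, which is encoded in Smc4 alone. Ratios with miR-16 therefore do not compare the loci. The ratio of miR-16 to miR-15b varied little in progenitors, between -0.66 and -0.63 on all 6 arrays. In differentiated cells it was -0.01 and 0.10 in Gr1+ monocytes, -0.35 and -0.32 in PDC, 0.18 and 0.15 in CD4+ DC, -0.15 and -0.16 in CD8+ DC, and -0.19 and -0.09 in CD4-CD8- DC. The difference was 0.57 with no overlap (exact adjusted p = 0.000638).

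The ratio of miR-15a, encoded in Dleu2 alone, to miR-16, encoded in Dleu2 and Smc4, shifted less and not in every population. It was -1.34 and -1.55 in Gr1+ monocytes, -0.59 and -0.94 in PDC and between -1.18 and -0.57 in spleen DC, against -1.59 to -1.25 in progenitors. The monocyte arrays lay within the progenitor range and the other differentiated arrays above it. Over all populations the difference was 0.46 (exact adjusted p = 0.00918), but with whole populations permuted (56 arrangements) the adjusted p was 0.107, while that of miR-15a over miR-15b and of miR-16 over miR-15b was 0.0357.

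Within bone marrow the ratio differences were 0.81 for miR-15a over miR-15b and 0.51 for miR-16 over miR-15b (exact adjusted p = 0.02 for both, 100 arrangements, smallest p 0.01), and 0.30 for miR-15a over miR-16 (exact adjusted p = 0.168). Without PDC replicate 1, PDC replicate 2 or Gr1+ monocytes replicate 2, only 40 arrangements remained and the adjusted p of the first 2 was 0.05. The ratios that involve miR-195 rest on the floor in progenitors and are not read further. The test counts arrays of 1 population as separate, although both are of the same cell type.

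**Figure D4:**
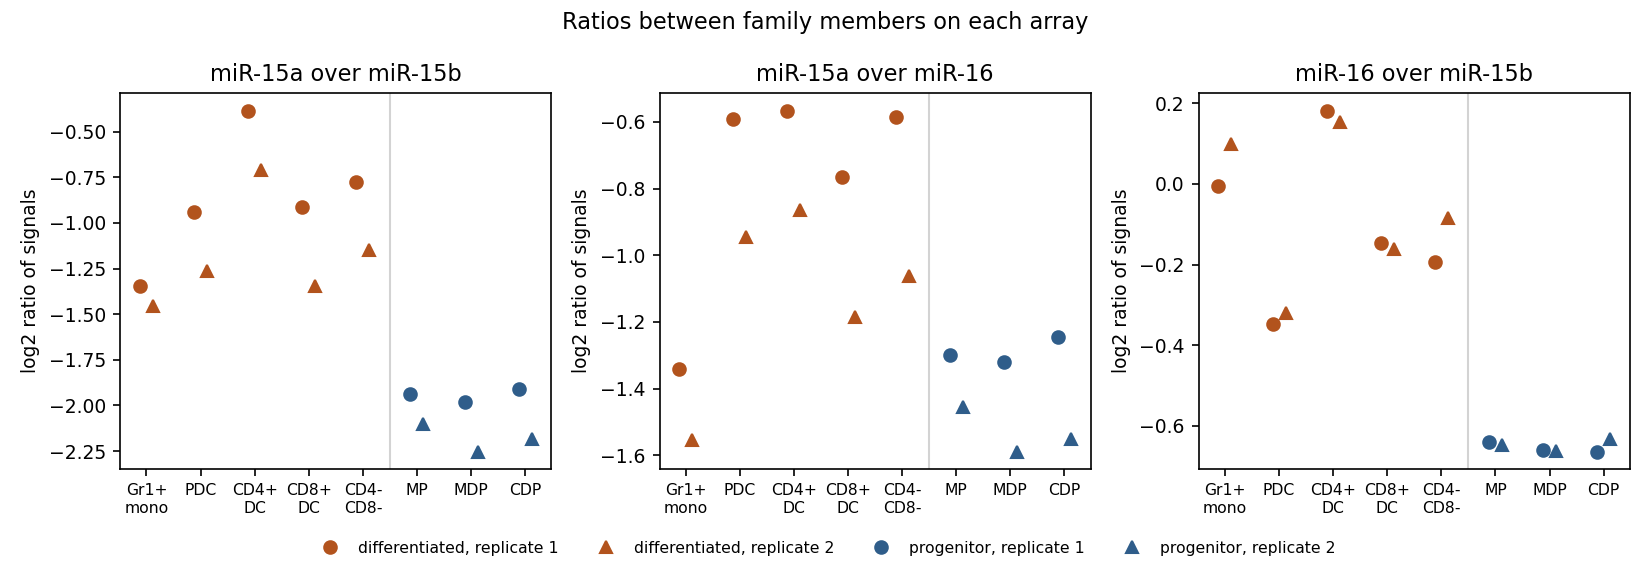
Log2 ratio of miR-15a to miR-15b, miR-15a to miR-16 and miR-16 to miR-15b on each array, with differentiated populations left of the line and progenitors right of it, circles for replicate 1 and triangles for replicate 2. Both ratios over miR-15b lie higher in every differentiated array, while the monocytes' ratio of miR-15a to miR-16, at -1.34 and -1.55, lies within the progenitor range.

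Each member was read by 2 probes of 10 spots each, and the probes did not always agree in size. For miR-15a the probes gave differences of 1.53 and 1.55 between differentiated and progenitor arrays, and for miR-16 they gave 1.06 and 1.08. For miR-15b the probe that pairs with bases 3 to 22 gave 0.61 and the one that pairs with bases 4 to 22 gave 0.32. When the fit used the dimmer probe of each member, miR-15b was still called higher in differentiated cells (0.24, adjusted p = 0.0140, limma), but it differed by 0.0008 between PDC and CDP and by 0.05 between spleen DC and CDP.

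The miR-195 signal came from 1 of its probes. Both are shown 5′ to 3′ as deposited, with capitals at the bases that do not pair with miR-16 in the same register.
Shorter miR-195 probe: gccaatatttCTgtgctg
Longer miR-195 probe: gccaatatttCTgtgctgc

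The longer probe was detected on 11 arrays, with processed signals of 31.6 to 77.9 on the 10 differentiated arrays and 6.75 to 18.4 on the 6 progenitor arrays. The shorter probe was detected on 0 arrays, with signals of at most 5.67. The longer probe pairs with miR-16 at 17 of its 19 bases and the shorter at 16 of its 18. Among the differentiated populations, Gr1+ monocytes had the highest mean of miR-16 and the lowest of miR-195. In that order of miR-195, 0 of 4 neighbouring pairs were called. With normexp miR-195 changed sign in monocytes against PDC and against spleen DC. The part of miR-16 in the miR-195 signal was not tested.

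Of 14 other miRNAs listed for the family seed, a related seed or the opposite strand of the same hairpins, 10 were on both designs. Of the 10, 6 were detected on 0 arrays, among them miR-497, the neighbour of miR-195, and the opposite strands of miR-15a, miR-15b and miR-16. The 4 tested were miR-322, miR-503, miR-103 and miR-107, shown here for their seeds.
miR-322: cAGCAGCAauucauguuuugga
miR-503: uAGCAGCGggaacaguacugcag
miR-103: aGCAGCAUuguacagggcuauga
miR-107: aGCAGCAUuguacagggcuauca

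miR-322, encoded on the X chromosome, has the family seed exactly and yet fell in the mean of the differentiated populations, by 1.10 ± 0.07 on the log2 scale (adjusted p = 1.19e-06, limma). With normexp it fell by 0.49 (adjusted p = 0.0248, limma). Its levels were -4.44, -3.64 and -2.48 (lowest, median and highest of 10 arrays) in differentiated cells and -3.31, -2.76 and -1.70 in progenitors, and the ranges overlapped through Gr1+ monocytes at -2.48 and -2.66. By step, miR-322 was called lower in PDC (-1.17 ± 0.14) and in spleen DC (-0.66 ± 0.11), each against CDP. In Gr1+ monocytes against MDP it was not called (0.19 ± 0.14). Among the progenitors it was called lower in MDP than in MP (-0.96 ± 0.14, adjusted p = 0.00780, limma). miR-107 rose by 0.78 ± 0.07 (adjusted p = 6.45e-06, limma) and miR-103 by 0.33 ± 0.05 (adjusted p = 4.04e-04, limma), which share a seed offset from that of the family. miR-103 was not called under scaling over all miRNAs (0.10) or quantile normalization (0.16). miR-503, detected on 3 arrays, was not called (-0.099), but it was called lower without MP replicate 1 (-0.24, adjusted p = 0.0375, limma), and its sign turned without MP replicate 2 (0.036).

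The miRNAs most like each member were ranked by Pearson's r over the 16 arrays, each level taken as its distance from the mean of its design. The arrays share scaling factors and population structure, and r is given as a description. miR-15a was most like miR-22 (0.974), miR-350 (0.964) and miR-195 (0.962). miR-16 was most like miR-15a (0.930), miR-22 (0.925) and miR-15b (0.916), and miR-15b was most like miR-16 (0.916), let-7i (0.831) and miR-185 (0.827). miR-195 was most like miR-15a (0.962), miR-22 (0.952) and miR-185 (0.948). Every progenitor value of miR-195 was the floor, so any r with miR-195 in part restates the split between floored progenitors and differentiated arrays. The median r over all tested miRNAs was between 0.190 and 0.214 for the 4 members. The miR-15 paralogs, miR-15a and miR-15b, were less alike, with an r of 0.787.

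Red cell miRNAs moved with part of the contrast. The erythroid list of miR-451, miR-144 and miR-486 had summed linear scaled signals of 0.0292 to 1.29 on the 10 differentiated arrays and 0.0246 to 0.536 on the 6 progenitor arrays, with miR-144 detected on 0 arrays. The highest progenitor sum, 0.536, came from 1 MP array, and the other MP array had 0.0295. The sums reached 0.0404 in CDP and 0.0288 in MDP. In Gr1+ monocytes the sums were 0.0292 and 0.0481, the higher of them above every progenitor array except that MP array. PDC had 0.130 and 0.358, and the sums reached 1.29 in CD8+ DC, 0.843 in CD4+ DC and 0.211 in CD4-CD8- DC. The part of red cell RNA in the results of any population, spleen DC included, was not tested. Of the stromal and epithelial list, 2 of 5 miRNAs, miR-200b and miR-200c, were detected on any array, with list sums of 0.0226 to 0.0794 on differentiated arrays and 0.00181 to 0.00708 on progenitor arrays. The sums in Gr1+ monocytes, where 0 of the 5 were detected, were 0.0275 and 0.0277. These sums did not overlap between differentiated and progenitor arrays, and their part in the rise of the members was not tested.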

How the data were processed

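The members and the lists of related and marker miRNAs were chosen with earlier results of these data known. Per the file headers, the authors read spot intensities with Agilent Feature Extraction in version 10.7.3.1, and the submitters' processing notes give 9.1. The deposited values are background-corrected intensity values on a linear scale, without logging or scaling. The deposited intensity values of the series tables are these values at 3 digits, equal on all 13715 or 14635 spots of an array. Total RNA was labelled with Cy3, per the labels.

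Spots flagged as non-uniform or as population outliers were dropped. Linear signals were averaged over the spots of each probe, then over the probes of each miRNA. Detection required 1 probe with at least a share of 0.5 of its spots marked as well above background. The 75th percentile among the 88 miRNAs found on all 16 arrays was the divisor of each array. Values under a floor (the 5th percentile of an array's detected values, as a median over the design) were set to it before logging. limma 3.58.1 in R 4.3.3 fitted the population means with the replicate number as a block. The number pairs the arrays because it marks the array design, and deviations of same-numbered arrays correlated for each of the 28 population pairs (r of 0.297 to 0.917). For a miRNA not detected on any array of 1 group, a lower bound of the fold was taken against the lowest signal among probes well above background on each of its arrays. Sequences are from the deposited array files and RefSeq. The fits and the permutation test were tested on simulated data. Alternatives were other scalings, background correction by normexp, single probes (the dimmer probe was added after seeing the data), a lower floor, no block and leaving out each array. The number of arrays limits the precision, and p-values cover the spread between 2 pools per population.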

Additional observations from a re-analysis of the deposited data

How the results depend on the processing

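All 4 members kept their calls between differentiated and progenitor populations without each array in turn (4 of 4 in the whole contrast and in marrow). For miR-195 these fits set differentiated cells against the floor, so leaving out an array is a weak check of it. Its calls in both contrasts were lost with normexp and with the dimmer probe. The deposited series tables and the restriction to miRNAs detected on all arrays moved no count of called members by over 1.5 times. In the paired analysis, removing the replicate block moved PDC minus spleen DC to 0 called members, Gr1+ monocytes minus PDC to 1 and PDC minus CDP to 3, and changed no other count of called members. Over the 8 populations, normexp called 2 members. PDC minus CDP and spleen DC minus CDP held 2 called members each when scaled over all miRNAs, with normexp and with the dimmer probe. Gr1+ monocytes minus spleen DC held 1 with normexp, miR-195 with its sign turned. PDC minus spleen DC held 0 when scaled over all miRNAs, with normexp, with the brightest probe and with the floor lowered by 1, and 2 under quantile normalization. Gr1+ monocytes minus PDC held 1 when scaled over all miRNAs or with the brightest probe and 0 under quantile normalization. CD8+ DC minus other spleen DC held 3 when scaled over all miRNAs, all lower, and 1 under quantile normalization, with the brightest and with the dimmer probe. Of the neighbouring pairs in the order of levels, scaling over all miRNAs called 10 and quantile normalization 8, against 3. Of the ratios, 3 of 6 were called with whole populations permuted, miR-195 over miR-15a among them, and 0 in marrow, where the smallest p is 0.1. With the dimmer probe 5 were called in marrow, among them the ratios of miR-195 to each other member. miR-195 was then at the floor on every array, so those ratios only restate the other member's change with its sign turned.

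Leaving out 1 array at a time gave 1 to 3 called members for Gr1+ monocytes minus spleen DC, 0 to 3 for PDC minus spleen DC (3 without PDC replicate 2), 1 to 2 for Gr1+ monocytes minus PDC, 0 to 1 for CD8+ DC minus other spleen DC and 0 to 4 marrow ratios. Signs turned in this way for differences not called with all arrays, miR-15a (-0.039 to 0.20) and miR-195 (-0.47 to 0.056) in Gr1+ monocytes minus PDC, miR-15b (-0.11 to 0.17) and miR-195 (-0.35 to 0.18) in PDC minus spleen DC, and miR-195 over miR-16 (-0.090 to 0.039, and -0.49 to 0.025 in marrow). Of these, miR-195 was called without PDC replicate 1 in Gr1+ monocytes minus PDC (-0.47) and without PDC replicate 2 in PDC minus spleen DC (-0.35).

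Scaling over all miRNAs also turned miR-15a (0.032), miR-15b (0.13) and miR-16 (0.11) in MDP minus MP, miR-15b (-0.13) in PDC minus CDP and (-0.35) in spleen DC minus CDP, miR-15a (0.10) in Gr1+ monocytes minus spleen DC, miR-195 (0.091) in PDC minus spleen DC, and miR-15b (-0.47) and miR-16 (-0.64) in CD8+ DC minus other spleen DC, where the median of all miRNAs moved to -0.23, against 0.19. Quantile normalization turned miR-15b in MDP minus MP (0.10), spleen DC minus CDP (-0.23) and Gr1+ monocytes minus PDC (-0.052), miR-15a in Gr1+ monocytes minus spleen DC (0.35) and PDC minus spleen DC (0.22), and miR-16 in PDC minus spleen DC (0.38) and CD8+ DC minus other spleen DC (-0.076). Normexp turned miR-195 in Gr1+ monocytes minus spleen DC (0.94), Gr1+ monocytes minus PDC (1.04), CD8+ DC minus other spleen DC (0.26) and CD4+ DC minus CD4-CD8- DC (-0.077), miR-15a in Gr1+ monocytes minus PDC (-0.072), and miR-195 over miR-15b (-0.22, and -0.032 in marrow). It moved the median of all miRNAs in the first 2 of these to 0.86 and 0.96. The dimmer probe, whose miR-195 value is the floor, turned miR-15b in PDC minus spleen DC (-0.052) and miR-195 over miR-15b (-0.24, and -0.41 in marrow), and the brightest probe turned miR-195 over miR-16 (0.18). The causes were not tested. miR-195 is limited by its signal, at the floor in progenitors.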
